A study of Mus musculus with 8 samples.

Results

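The Bcl2 family members examined here are 10 genes of the mitochondrial cell death pathway that are not counted among the p53 targets of this study: Bcl2, Bcl2l1, Bcl2l2, Bcl2l10, Mcl1, Bak1, Bok, Bid, Bad and Bcl2l11. They were found by joining the RefSeq accession of every probe to its gene symbol, which gave 14 probes among the 55681 on the array. The rule joins names and uses no expression value, but the 10 genes were picked with earlier results of these arrays known. All 10 genes had at least 1 probe bright enough to be tested, and 13 of the 14 probes were tested. Over the whole array 30348 probes, standing for 14601 named genes, were tested.

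The arrays carried RNA of mouse morulae at embryonic day 3.0, made by in vitro fertilisation and grown in KSOM medium. The control group (siControl, 3 arrays) had received control siRNA, and the knockdown group (P150KD, 5 arrays) siRNA against P150, both injected into embryos of the 1-cell stage. P150, encoded by Chaf1a, is the biggest protein of CAF-1, a chaperone that places histones on newly copied DNA. Each array held amplified RNA of 10 pooled embryos, so differences between single embryos are not seen, and the strain of the mice is not given in the sources used here. No label says whether the replicates are separate collections of embryos, so the spread behind each p-value may be partly technical, and the number of arrays limits the precision. Every level is relative, since labelled RNA was put on each array after amplification.

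Proteins of the Bcl2 family decide whether the outer membrane of the mitochondrion stays closed. The survival members, encoded by Bcl2, Bcl2l1 (Bcl-xL), Bcl2l2 (Bcl-w) and Mcl1, hold back the effectors, of which Bak1 and the less studied Bok are in the set, and a membrane opened by effectors releases cytochrome c and starts the caspases. The BH3-only members Bid, Bad and Bcl2l11 (Bim) bind survival members or effectors and tip the balance towards death. Bcl2l10, also called Diva or Boo, is an ovarian and oocyte gene whose effect on cell death is disputed. Much of the family's control lies in phosphorylation, cleavage and turnover of the proteins, which an RNA array does not measure.

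In knockdown morulae 1 of the 10 genes fell, 0 rose and 9 did not pass the test. The gene that fell was Bad, whose signal was 3.34-fold lower in P150KD (95% interval 2.13 to 5.23, limma adjusted p = 0.00959, 3 against 5 arrays). Over all tested genes 17.1% passed in either direction, 6.65% as rises and 10.5% as falls, so 1 fall among 10 genes is near the background. Counted by probe, 1 of 13 member probes fell, where 13.9% of all tested probes passed, 6.28% as rises and 7.66% as falls. At an unadjusted p under 0.05 the members that passed were Bad and Bcl2l1, 2 of 10, where 35.6% of all tested genes did. The mean signal was higher in P150KD for 5 members and lower for 5, where 38.7% of all tested genes were higher and 61.3% lower. The median log2 fold change of the members was -0.10, beside -0.24 for all tested genes. By role, 0 of 4 survival members, 0 of 2 effectors and 1 of 3 BH3-only members passed. All 3 BH3-only members had lower means in P150KD, the direction of most tested genes.

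Levels here are log2 processed signals with the 75th percentile of the array set to 0, fold changes are P150KD minus siControl on that scale, and a passed test means a Benjamini-Hochberg adjusted p under 0.05 over all tested probes. On each array 50.12% to 55.95% of spots were well above background, and 0 were saturated. Of the 8 arrays, siControl replicate 3 stood apart, with a 75th percentile of 819.5 where the others had 1066 to 1304. Across probes its log2 levels correlated at 0.922 and 0.920 with the other controls, which correlated at 0.947 with each other. With the knockdown arrays its correlations were 0.860 to 0.879, and those of the other controls 0.889 to 0.911. Chaf1a itself fell from 2.25 ± 0.16 (SD, n = 3) to -0.62 ± 0.85 (SD, n = 5), a log2 fold change of -2.88 (limma adjusted p = 0.0107). All 8 morula and trophectoderm markers and all 5 markers of inner cells were well above background on every control array. Summed levels of markers are sums of levels taken out of the log2 scale, each gene by its brightest probe, so bright genes weigh most. The summed level of the first list ran from 344 to 377 in siControl. In P150KD it ran from 168 to 197, with 3 of its 8 genes fallen. The part of this list in the results below was not tested. The summed level of the inner cell list was 308 to 320 in siControl and 255 to 362 in P150KD, with 1 of its 5 genes fallen, the pluripotency factor gene Sox2 (log2 fold change -2.91, limma adjusted p = 0.0108). Of 8 leukocyte markers 3 (Ptprc, Laptm5 and Tyrobp) were above background on no array. The 5 others were above background on every control array and were tested. Of these 3 rose, Cd74, Coro1a and Srgn, by 2.31, 2.67 and 1.97 on the log2 scale (limma adjusted p = 0.00808, 0.0146 and 0.0417). Cd52 and Lcp1 did not pass. The summed levels of the leukocyte markers were 5.45 to 7.5 in siControl and 8.39 to 16.3 in P150KD. Their part was not tested either. The cumulus and granulosa markers (2 of 8 tested, summed level 1.85 to 2.24 in siControl and 1.58 to 2.63 in P150KD) and the sperm markers (4 of 7 tested, 0.198 to 0.252 and 0.241 to 1.92) held no gene that passed in limma. In bulk RNA, fewer cells of a kind and less RNA per cell cannot be told apart.

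**Figure D1:**
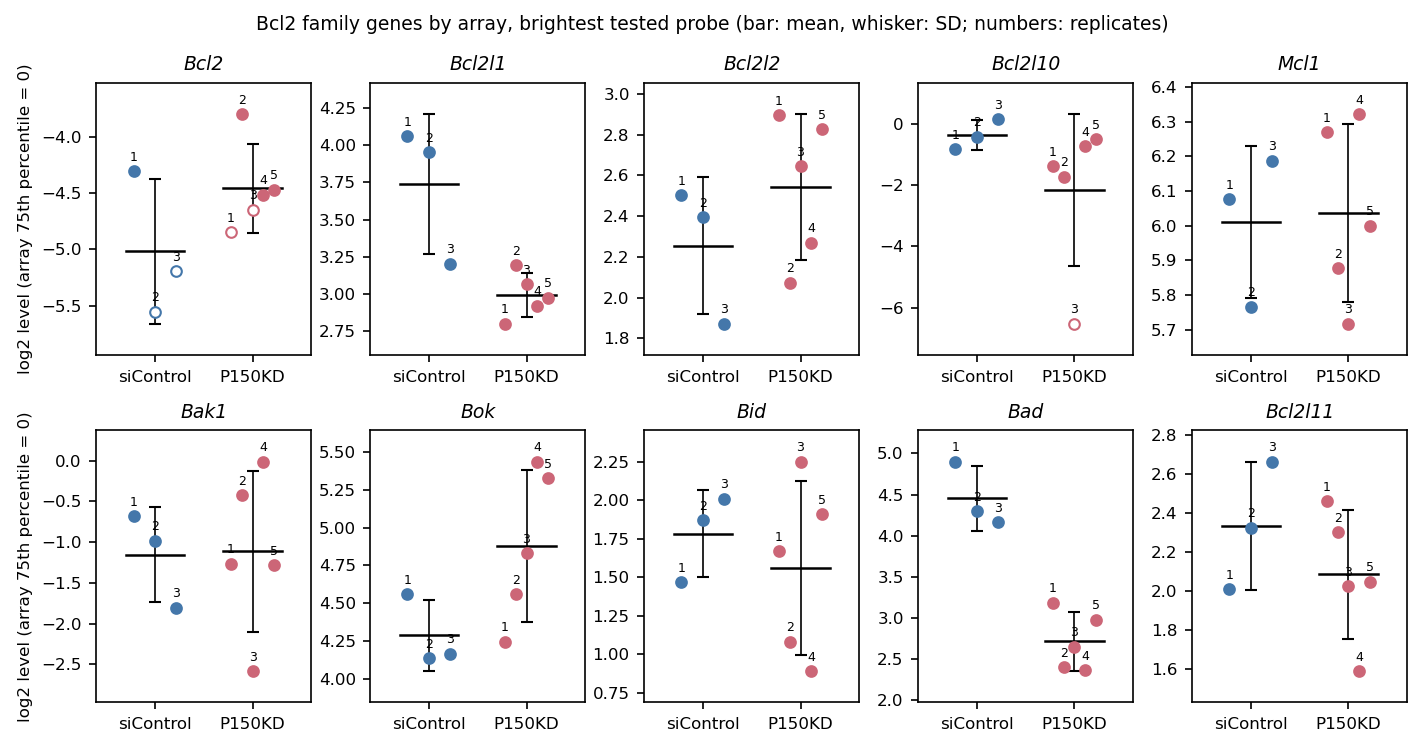
The log2 level of each of the 10 genes (vertical axis, 75th percentile of the array = 0) on the 3 siControl arrays in blue and the 5 P150KD arrays in red, by its brightest tested probe, with the replicate number beside each point, the mean as a bar and the SD as a whisker. Open points were not well above background. The groups do not overlap for Bad and Bcl2l1, and P150KD replicate 3 of Bcl2l10 lies far below all other points of that gene.

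Among the BH3-only genes, Bad read 4.90, 4.30 and 4.16 on siControl replicates 1 to 3 by its brighter probe, A_55_P1962234. On P150KD replicates 1 to 5 it read 3.19, 2.40, 2.65, 2.36 and 2.98. Every knockdown array lay below every control array, and the gap between the groups, from 4.16 to 3.19, was wider than the range within either. The means were 4.45 ± 0.39 (SD, n = 3) and 2.72 ± 0.36 (SD, n = 5), a log2 fold change of -1.74 (SE 0.28, limma adjusted p = 0.00959). Of the 14601 tested genes 859 had a lower log2 fold change, so Bad lay in the lowest 5.88%. Bad encodes a sensitiser that binds Bcl2 and Bcl-xL when it is not phosphorylated and is held by 14-3-3 proteins when it is.

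The direction for Bad was the same under every scaling tried. Its log2 fold change was -1.52 after quantile normalization (limma adjusted p = 0.0138) and -1.11 when the arrays were scaled to a housekeeping list (adjusted p = 0.0362). All 8 arrays lie on 1 slide, whose first column holds the 3 controls and P150KD replicate 1. With the column as a block, only that array is set against the controls, and Bad did not pass (log2 fold change -1.27). Chaf1a, the target of the siRNA, did not pass under that block either. Its log2 fold change was larger in size with the block, -3.72 beside -2.88 without it. That of Bad was smaller in size with the block, -1.27 beside -1.74 without it. A call lost there cannot be told apart from a lack of arrays. P150KD replicates 2 to 5, in the other column, read 2.36 to 2.98, each below replicate 1.

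The second Bad probe, A_65_P16603, was dim and did not pass (log2 fold change -1.17, 95% interval -3.73 to 1.39, limma adjusted p = 0.511). It was well above background on 2 of 3 control and 3 of 5 knockdown arrays. Its processed signals were 38.0, 55.6 and 543 on the controls and 52.4, 18.8, 29.9, 163 and 74.9 in P150KD. The third control stood apart from all others, and without it the sign turned, to 0.18 on the log2 scale. Averaged over both probes, Bad had a value of -1.45 that did not pass (limma adjusted p = 0.0942). The fall of Bad thus rests on its brighter probe.

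The start regions of the members were taken from RefSeq (GRCm38.p6), since Bad was the member that fell. Of the 10 genes 9 had an entry, with 13 windows of 250 bases before a start; Bcl2l10 had none. Both windows of Bad lie on chromosome 19, plus strand, ahead of 2 separate starts, and are shown 5′ to 3′ with each GGGCGG, on either strand, in capitals:
Bad, chr19:6941611-6941860: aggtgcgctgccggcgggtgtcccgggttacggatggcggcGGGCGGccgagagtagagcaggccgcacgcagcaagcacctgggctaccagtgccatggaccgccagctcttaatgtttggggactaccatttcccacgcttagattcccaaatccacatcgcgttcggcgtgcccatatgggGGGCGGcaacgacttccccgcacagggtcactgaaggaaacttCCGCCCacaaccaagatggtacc
Bad, chr19:6942312-6942561: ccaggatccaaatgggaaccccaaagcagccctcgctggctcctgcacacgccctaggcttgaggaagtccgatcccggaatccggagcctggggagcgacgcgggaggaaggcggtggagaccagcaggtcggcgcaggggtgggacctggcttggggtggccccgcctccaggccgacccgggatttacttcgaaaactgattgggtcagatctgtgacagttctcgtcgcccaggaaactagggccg

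The first of these windows held 3 copies of GGGCGG, the GC box bound by Sp1-type factors, and the second 0. Of the 13 member windows 8 held that motif, beside 32.7% of all 32851 windows in the table. CCAAT was in 3, beside 33.8%, each motif searched on both strands. The windows come from 9 genes, and both windows of Bcl2l11 held both motifs, so windows are not separate genes. GGGCGG was also found in members that did not pass, Bcl2, Bcl2l2, Bcl2l11, Bid, Bok and Mcl1, and not in Bak1 or Bcl2l1. TATAAA was in 0 of the 13 (12.4% of all windows), CACGTG in 0 (6.02%) and the p53 half-site in 0 (7.13%). The windows of Bad had 21 and 18 CpG sites, where the median of all windows was 6. The CpG count ran from 0, in 1 of the 3 windows of Bcl2l1, to 36 in that of Bcl2. GGGCGG holds a CpG site, so the motif and the count overlap, and these letters were not tested against the expression values.

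Bcl2l11 encodes Bim, which binds all survival members. Its levels were 2.01, 2.33 and 2.66 in siControl and 2.46, 2.30, 2.02, 1.59 and 2.05 in P150KD. Only replicate 4 of the knockdown lay below all controls, and the log2 fold change of -0.25 (95% interval -0.84 to 0.35) did not pass (limma adjusted p = 0.55). The probe was named from 1 of several RefSeq transcripts, and splice forms of Bim were not told apart.

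Bid is cut by caspase 8 and so links death receptors to the mitochondrion. It read 1.47, 1.87 and 2.01 in siControl and 1.67, 1.08, 2.25, 0.89 and 1.91 in P150KD. The knockdown arrays spread on both sides of the controls, with an SD of 0.57 beside 0.28. Bid had a log2 fold change of -0.22 (95% interval -1.03 to 0.59, limma adjusted p = 0.701). For both Bid and Bcl2l11 the value lay close to the median of all genes, -0.24, and turned positive when scaled to the housekeeping list, at 0.40 and 0.38, neither passing.

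**Figure D2:**
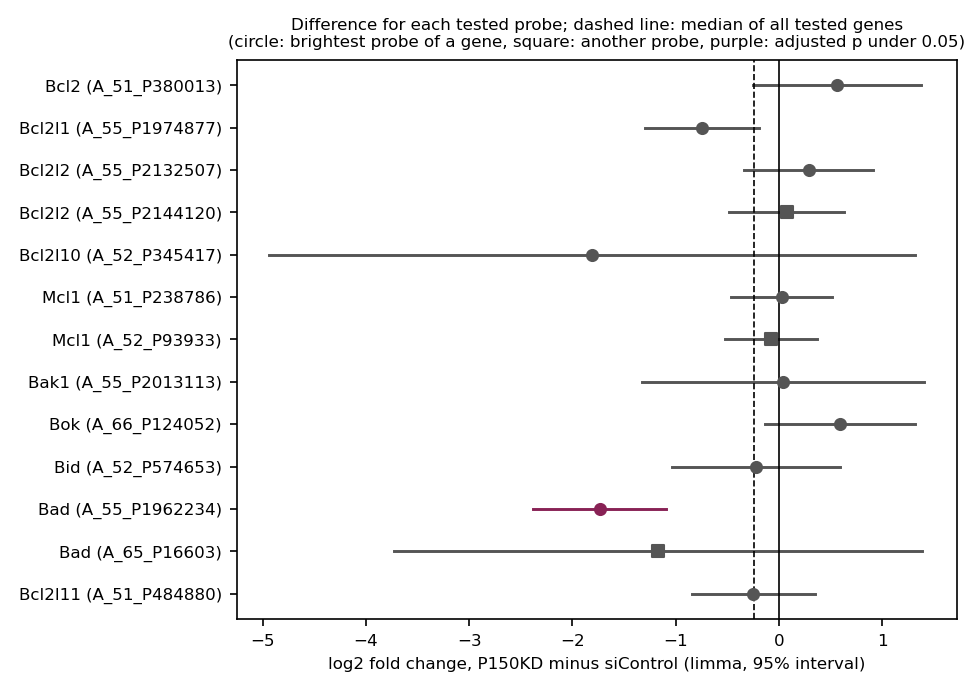
The log2 fold change (P150KD minus siControl, horizontal axis) of each of the 13 tested probes with its 95% interval from limma. Circles are the brightest probe of a gene, squares a second probe, purple marks an adjusted p under 0.05, and the dashed line is the median of all tested genes at -0.24. Bad, at -1.74, is the probe that passed, and the intervals of Bcl2l10 and of the dim Bad probe are the widest.

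Among the survival genes the largest difference was that of Bcl2l1, the gene of Bcl-xL. It read 4.06, 3.95 and 3.204 in siControl and 2.80, 3.195, 3.07, 2.92 and 2.98 in P150KD. The groups just failed to touch, since siControl replicate 3 sat beside P150KD replicate 2 while the other controls stood well above. The means were 3.74 ± 0.47 (SD, n = 3) and 2.99 ± 0.15 (SD, n = 5). Its log2 fold change was -0.75 (SE 0.24, 95% interval -1.30 to -0.20), with an unadjusted limma p of 0.0145 and an adjusted p of 0.0768, so Bcl2l1 did not pass. Groups that do not overlap were found for 2 of the 10 members, Bad and Bcl2l1, both lower in P150KD, and for 32% of all tested genes, 21.8% with P150KD lower and 10.2% with P150KD higher.

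The call on Bcl2l1 moved with the setting. With siControl replicate 3 left out, the log2 fold change was -1.01 (limma adjusted p = 0.0304), and it passed with array weights (-0.94, adjusted p = 0.016). It passed too with trended robust variances (adjusted p = 0.0444) and among probes above background on all 8 arrays (adjusted p = 0.0465). Scaled to the housekeeping list it was -0.12 (adjusted p = 0.769). A second probe, A_52_P510877, was above background on 0 of 8 arrays, with processed signals of 6.21 to 9.61, and was not tested.

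Mcl1 encodes the short-lived survival protein that early embryos need before implantation. Its probe A_51_P238786 read 6.08, 5.77 and 6.19 in siControl and 6.27, 5.88, 5.72, 6.32 and 6.0003 in P150KD. The other probe, A_52_P93933, read 5.29, 5.48 and 5.20, and 5.41, 5.16, 4.89, 5.45 and 5.33. By both probes the groups overlapped, and replicate 3 was the lowest and replicate 4 the highest of the 5. The log2 fold changes were 0.03 (95% interval -0.46 to 0.52, limma adjusted p = 0.943) and -0.08 (95% interval -0.53 to 0.37, adjusted p = 0.809). The interval of the first probe runs from 1.38-fold lower to 1.43-fold higher and holds for this scaling alone. Scaled to the housekeeping list that probe gave 0.65 (adjusted p = 0.0882), above the interval.

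Bcl2l2, the gene of Bcl-w, also had a pair of probes. The brighter, A_55_P2132507, read 2.50, 2.39 and 1.87 in siControl and 2.90, 2.07, 2.64, 2.27 and 2.83 in P150KD, with 3 knockdown arrays above all controls. The other, A_55_P2144120, read 0.46, 0.46 and -0.12, and 0.54, 0.07, 0.59, 0.003 and 0.53. In both, siControl replicate 3 was the lowest of the 8 arrays, and P150KD replicates 1, 3 and 5 were the highest. The log2 fold changes of 0.29 (SE 0.27) and 0.08 (SE 0.24) did not pass (limma adjusted p = 0.508 and 0.857).

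Bcl2, the founding member, was near the limit of detection in morulae. It was well above background on 1 of 3 control and 3 of 5 knockdown arrays. The processed signals were 58.2, 24.3 and 22.3 in siControl and 37.4, 76.3, 46.0, 47.1 and 58.7 in P150KD. The log2 fold change of 0.56 (95% interval -0.25 to 1.37) did not pass (limma adjusted p = 0.317) and it was positive in the 19 alternatives that gave a value. Its size was not steady, from 0.048 with normexp background correction to 1.19 scaled to the housekeeping list. The probe was named from 1 of 2 RefSeq transcripts of Bcl2, which were not told apart.

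Of the effectors, Bok read 4.56, 4.14 and 4.17 in siControl and 4.25, 4.56, 4.83, 5.43 and 5.32 in P150KD. In 4 of 5 knockdown arrays Bok was above every control, replicate 2 by the least and replicates 4 and 5 by the most, while replicate 1 lay among them. Its log2 fold change was 0.59 (95% interval -0.14 to 1.32, limma adjusted p = 0.245), the highest of the 10 members. With the slide column as a block it was -0.04 (adjusted p = 0.979), since replicate 1 is the knockdown array that shares the column of the controls.

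Bak1, which opens the outer membrane together with or in place of Bax, read -0.68, -0.98 and -1.80 in siControl. In P150KD it read -1.27, -0.42, -2.58, -0.01 and -1.28. The knockdown arrays covered a range of more than 2 log2 units on both sides of the controls. Its log2 fold change was 0.04 (95% interval -1.32 to 1.41, limma adjusted p = 0.969), an interval that holds a 2-fold difference in either direction.

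Bcl2l10 had the lowest fold change and the widest spread of the members. Its processed signals were 647, 849 and 911 in siControl and 410, 322, 12.5, 649 and 914 in P150KD. On P150KD replicate 3 the probe was not well above background, while the other 7 arrays gave clear signals. The log2 levels had means of -0.37 ± 0.49 (SD, n = 3) and -2.18 ± 2.48 (SD, n = 5), and the log2 fold change of -1.81 (SE 1.34) did not pass (limma adjusted p = 0.4). Without that array it was -0.72 (adjusted p = 0.281). The spot was not marked as non-uniform or outlying by the scanner software.

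**Figure D3:**
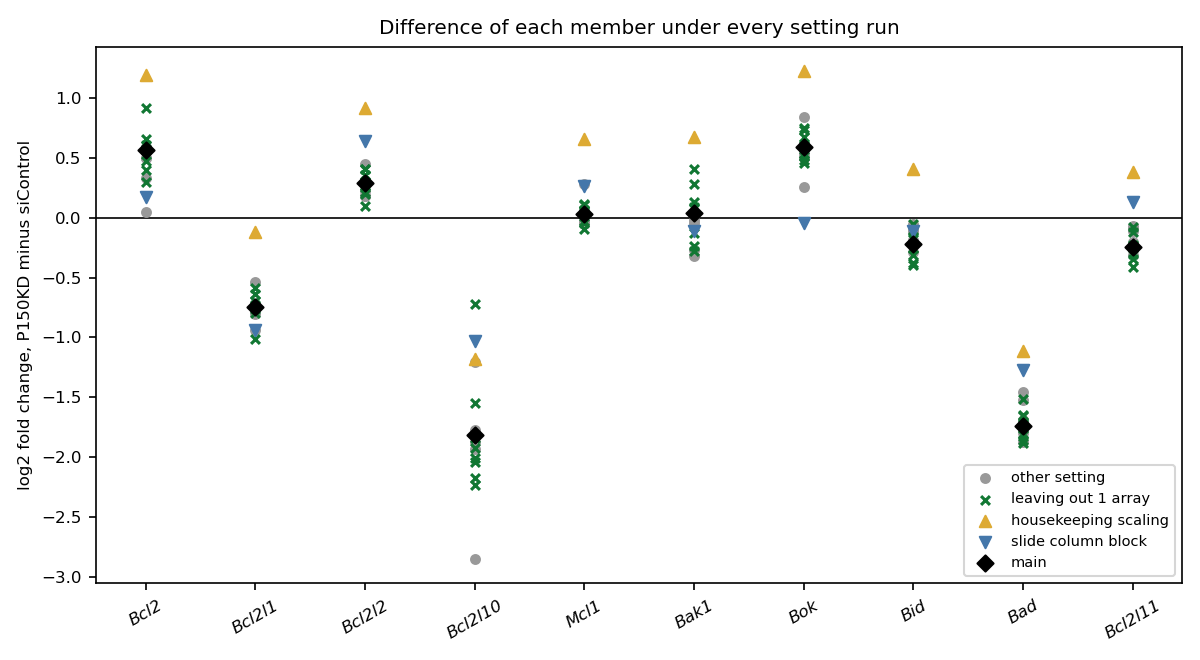
The log2 fold change of each of the 10 members (vertical axis, P150KD minus siControl) under each setting run, by its brightest tested probe. Black diamonds are the values reported, crosses leave out 1 array, triangles pointing up scale to the housekeeping list, triangles pointing down take the slide column as a block, and grey circles are the others. Bad, Bcl2l1 and Bcl2l10 stay below 0 in all settings shown, Bcl2 and Bcl2l2 above 0, and the other 5 genes cross it.

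The genes that resembled Bad most over the 8 arrays, by Pearson correlation of log2 levels, were Slc29a1 (r = 0.989), Cox6a1 (r = 0.986) and Pmvk (r = 0.981). Slc29a1 encodes a nucleoside transporter, Cox6a1 a subunit of cytochrome c oxidase and Pmvk an enzyme of the mevalonate pathway. These values describe 8 arrays that share the difference between the groups. Slc29a1 and Pmvk fell (log2 fold changes -1.51 and -2.06, limma adjusted p = 0.00669 and 0.00222), and Cox6a1 had a value of -0.48 that did not pass (adjusted p = 0.0647).

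The surrounding pathway was read from 6 lists with 80 genes, of which 73 were tested. In limma 4 rose, 12 fell and 57 did not pass, beside 6.65% risen and 10.5% fallen over all tested genes, and the median of the 73 was -0.34. The balance of directions depends on the scaling. Relative to the housekeeping list, in which several genes fell themselves, 14 rose and 1 fell. Under that scaling 17.6% of all tested probes passed, 90.7% of them as rises. The median of the 73 was then 0.29, beside 0.39 for all tested genes. With the slide column as a block 1 rose and 1 fell. Leaving out 1 array at a time gave 1 to 4 rises and 4 to 10 falls, the fewest falls without siControl replicate 1. Without siControl replicate 3 there were 1 rise and 5 falls. Over all tested probes, 5.62% to 12.4% passed when 1 array was left out. Of the 16 genes that passed, Pmaip1, Htra2, Casp2, Vdac2 and Birc2 passed whichever array was left out, and each of the other 11 missed the threshold without at least 1 array.

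The list of other Bcl2 family genes had 2 rises, 1 fall and 11 genes that did not pass out of 14 tested. Pmaip1, the p53-regulated BH3-only gene also called Noxa, whose protein binds Mcl1, read 5.00 to 5.04 on the controls and rose by 1.80 on the log2 scale (SE 0.14, limma adjusted p = 0.00109). Bcl2l15 rose by 2.18 (SE 0.51, adjusted p = 0.0316), and Bnip2 had a log2 fold change of -1.11 (SE 0.23, adjusted p = 0.0211). Averaged over its probes, Bcl2l15 had a value of 2.02 that did not pass (adjusted p = 0.265). Bbc3 (Puma), another p53 target, differed by 0.48 (adjusted p = 0.15), the mitophagy receptor gene Bnip3l by -0.46 (adjusted p = 0.147) and the effector gene Bax by 0.20 (adjusted p = 0.443). The other probes of Bnip3l gave -0.46, -0.24 and 0.17, none passing. Bax passed as a rise when scaled to the housekeeping list (0.83, adjusted p = 0.0147). Pmaip1 also passed with the slide column as a block (adjusted p = 0.0258), while Bcl2l15 and Bnip2 did not (adjusted p = 0.188 and 0.108).

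Downstream of the Bcl2 proteins, the list of the mitochondrial pore, apoptosome and caspases had 4 falls and 1 rise among 15 tested genes. Htra2, which encodes a protease released from mitochondria, fell from 5.99 ± 0.42 (SD, n = 3) to 3.97 ± 0.25 (SD, n = 5), 4.06-fold (limma adjusted p = 0.00445). Casp2 fell 2.33-fold (adjusted p = 0.00737), and Vdac2, whose channel protein binds Bak in the outer membrane, fell 2.14-fold (adjusted p = 0.00752). Vdac1 fell 1.57-fold (adjusted p = 0.0301). The rise was that of Endog, a mitochondrial nuclease gene, 3.77-fold (adjusted p = 0.0265). Scaled to the housekeeping list, the list had 4 rises, Endog among them, and 1 fall, Htra2, and the values of Casp2, Vdac2 and Vdac1 were -0.59, -0.47 and -0.03. When the column of the slide was a block Htra2 passed (adjusted p = 0.0493), while Casp2, Vdac2, Vdac1 and Endog did not (adjusted p = 0.0672, 0.11, 0.164 and 0.307).

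**Figure D4:**
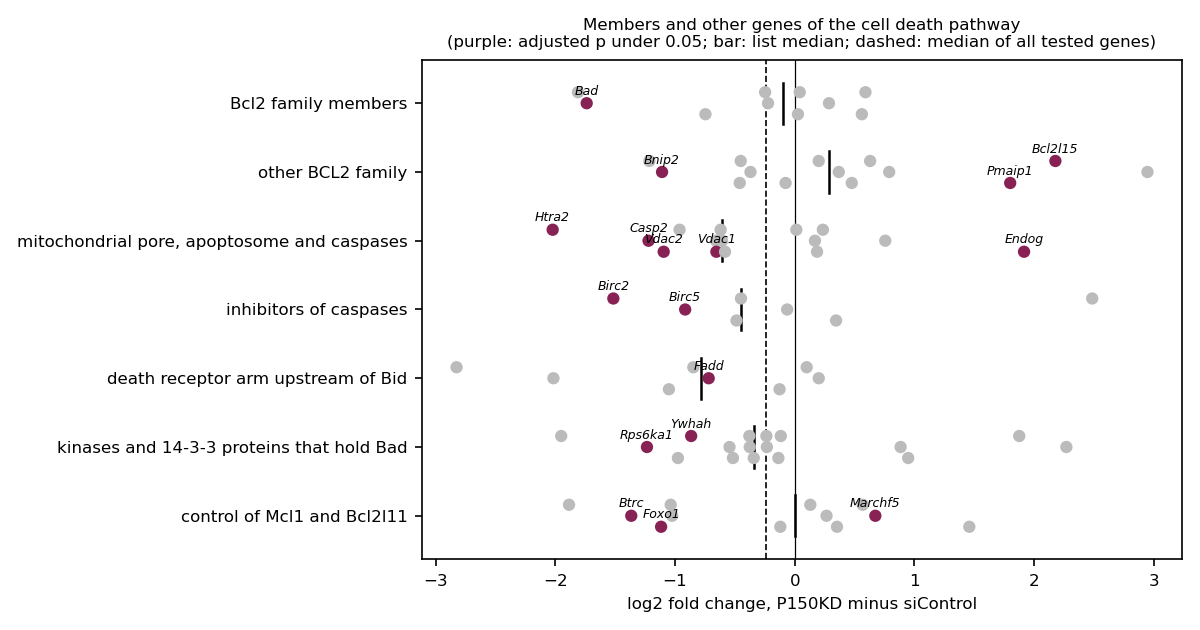
The log2 fold change (P150KD minus siControl, horizontal axis) of the 10 members in the top row and of the 73 tested genes of the 6 pathway lists below, each point a gene by its brightest tested probe. Purple points with names had an adjusted p under 0.05, bars are list medians and the dashed line is the median of all tested genes at -0.24. The member that passed is Bad, and of the pathway genes 12 of the 16 named lie left of 0.

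Of the 7 tested inhibitors of caspases, 2 fell and 5 did not pass. Birc2, which encodes the ubiquitin ligase cIAP1, fell 2.86-fold (limma adjusted p = 0.0106) and Birc5, the gene of survivin, which also acts in mitosis, 1.89-fold (adjusted p = 0.0392). Xiap differed by -0.49 (adjusted p = 0.176) and Naip5 by 0.35 (adjusted p = 0.183). Naip5 passed as a rise with quantile normalization (0.59, adjusted p = 0.0376) and with housekeeping scaling (0.97, adjusted p = 0.00485), where the list had 1 rise and 0 falls. In the death receptor arm upstream of Bid, 1 of 8 tested genes fell and 0 rose: the adaptor gene Fadd, 1.65-fold (adjusted p = 0.038). Tradd, Tnfrsf1a and the ligand gene Fasl had log2 fold changes of -0.85, -1.05 and -2.82 (adjusted p = 0.0522, 0.102 and 0.283). Another probe of Tnfrsf1a gave -0.07 (adjusted p = 0.865). Fasl was well above background on 1 of 5 knockdown arrays, replicate 4, at -0.82, and read -7.34 to -6.94 on the other 4. It passed without replicate 4, where the controls are set against background readings alone, so no fold is given for that comparison. Tradd passed without siControl replicate 3 (-1.08, adjusted p = 0.037). Casp8, whose enzyme cuts Bid, was too dim to be tested.

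Bad is controlled by kinases and 14-3-3 proteins, a list of 17 tested genes that includes the phosphatase gene Ppp3ca. Here 2 fell, 0 rose and 15 did not pass. Rps6ka1, a kinase gene of the MAP kinase pathway, fell 2.35-fold (limma adjusted p = 0.0145) and the 14-3-3 gene Ywhah 1.82-fold (adjusted p = 0.0402). Rps6kb1, another kinase gene, had a log2 fold change of -0.98 (adjusted p = 0.0522). It passed in 4 of 20 alternatives, among them normexp background correction (adjusted p = 0.0424) and array weights (adjusted p = 0.0414). The other probes of Rps6kb1 gave 0.59 and -0.77 (adjusted p = 0.185 and 0.526), so its probes differ in direction. Among 12 genes that act on Mcl1 or Bcl2l11, 2 fell and 1 rose. Foxo1 fell 2.17-fold (adjusted p = 0.0247) and the F-box gene Btrc 2.58-fold (adjusted p = 0.0485), while Marchf5, a ubiquitin ligase gene of the mitochondrial surface, rose 1.59-fold (adjusted p = 0.041). Averaged over all probes of each gene, Foxo1, Btrc and Marchf5 kept their directions but did not pass (adjusted p = 0.0549, 0.0564 and 0.06). Gsk3b differed by -1.02 by its brightest probe (adjusted p = 0.127) and by 0.48 and -1.81 by the others (adjusted p = 0.301 and 0.475). Of the 8 genes that passed in these 4 lists, none did so when the column of the slide was a block, the lowest adjusted p being 0.0892 (Rps6ka1), and scaled to the housekeeping list only Marchf5 did (adjusted p = 0.00199).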

How the data were processed

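In all, 8 one-colour arrays were used, 3 siControl and 5 P150KD, each with RNA amplified in 2 rounds. The authors' scanner files hold processed signals, which per the file headers are intensity values with background and spatial trend removed by Agilent Feature Extraction (version 10.5.1 in the submitters' processing notes) and without scaling between arrays. Flags mark spots of other kinds (dim, saturated, uneven), per the file headers. The deposited series table holds log2 values whose scaling and centring are not given in the sources used here. They correlated at 0.99999 with the levels below centred on each probe's median, and their column medians ran from -0.215 to 0.0914.

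Spots were averaged per probe, leaving out uneven or outlying ones if any other spot existed. The array's 75th percentile over probes (819.5 to 1304) was subtracted on the log2 scale. Probes bright on 3 or more of the 8 arrays, by the flag for well above background, entered the test. Scanner files name probes by accession, and 27235 probes received 1 of 20660 RefSeq symbols. Groups were compared with limma 3.58.1 in R 4.3.3 (lmFit, eBayes, two-sided) without covariates. Benjamini-Hochberg adjustment ran across every tested probe, at 0.05. The procedure was also run on simulated data with independent noise for each probe. Those data held no effect of array or slide column, so such effects were not covered. A gene was represented by its tested probe of highest mean.

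The members and lists were chosen with earlier results of these data known. Named are the 10 members, Chaf1a, the 4 genes of lowest p in each list and the 3 genes most like a member that passed; 1 gene of the lists is not reported here. Bax, Bbc3, Vdac1, Casp8, Ppp3ca and the named marker genes lie outside that rule and were added after their values were seen. Alternatives were normexp (offset 50, median spot signal), quantile, median and housekeeping scaling (16 genes), the series table, filters on dim probes, trended robust variances, array weights (statmod 1.5.0), the replicate number or slide column as a block, the mean of a gene's probes, and leaving out each array.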

Additional observations from a re-analysis of the deposited data

Results flagged for a closer look

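The level of Bcl2l10 on P150KD replicate 3, -6.53 on the log2 scale, lay far from the next lowest knockdown array at -1.73. The gap is 0.799 of the whole range of the 5 arrays, above Dixon's critical value of 0.71 for 5 values. Of the 13 member probes tested this way 1 was singled out, and chance singles out about 1 in 20 groups.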

How the results depend on the processing

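Of 254 values of the 13 member probes under the alternatives, 221 kept direction and call, 3 lost the call, 4 gained it and 26 changed sign, the last all in probes that had not passed. The falls among member genes and among member probes, 1 each, became 2 with probes above background on all arrays, with trended robust variances and with array weights, and ranged from 1 to 2 when 1 array was left out, with 0 rises throughout. They became 0 with the slide column or the replicate number as a block, and for genes with the mean of all probes.

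The replicate block gave Bad -1.71 (limma adjusted p = 0.129) and called 0 of all probes up and 0 down. No label says whether the numbers pair the arrays, and the levels showed no sign of it. Same-numbered arrays deviated from their group means with correlations of -0.014, -0.0745 and -0.0168. Under that block Mcl1 A_51_P238786 was -0.056 and Bak1 -0.27.

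Sign changes under scalings were Mcl1 A_52_P93933 at 0.16 and Bak1 at -0.043 (quantile), Mcl1 A_51_P238786 at -0.035 and Bak1 at -0.020 (median), and, scaled to housekeeping genes, Bcl2l11 at 0.38, Bid at 0.40, Mcl1 A_52_P93933 at 0.55, Bnip3l at 0.17 and Xiap at 0.14. With the slide column as a block they were Bcl2l11 at 0.13, Mcl1 A_52_P93933 at 0.081, Bak1 at -0.11 and Bok at -0.042. With array weights they were Bak1 at -0.32 and Bcl2l2 A_55_P2144120 at -0.019, and with the mean of all probes Mcl1 at -0.026. With 1 array left out, Mcl1 ran from -0.10 to 0.12 (A_51_P238786) and -0.14 to 0.010 (A_52_P93933), Bak1 from -0.28 to 0.41, Bcl2l2 A_55_P2144120 from -0.12 to 0.17 and Bad A_65_P16603 from -1.98 to 0.18. The causes of these changes were not tested.

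Over all probes, 1907 rose and 2324 fell. Falls were 1487 with quantile and 1512 with median scaling; the housekeeping list gave 4834 rises and 496 falls, and the slide column 442 and 271. The share of rises among calls was 45.1%, 58.2% with quantile and 90.7% with housekeeping scaling, where the median of all genes was 0.39. Leaving out 1 array gave 1016 to 1770 rises and 690 to 1979 falls, the fewest without siControl replicate 1. Of 539 values of the other named genes, 396 kept direction and call, 128 lost the call, 13 gained it and 2 changed sign. Bcl2, the second probe of Bad and the dim probe of Bcl2l1 were limited by signal near background.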
